A study of Mus musculus with 2 samples.

Results

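Cdkn1a, Mdm2, Gadd45a, Gadd45b, Gadd45g, Ccng1, Phlda3, Bax and Trp53, the gene of p53 with targets and growth arrest genes around it, were followed across the cell types of 1 uninjured and 1 ischemic mouse kidney. They were taken by symbol and are 9 of the 32285 genes listed in the deposited counts, and all 9 had reads in the kept cells. Single-cell RNA sequencing (scRNAseq) on 10x Genomics droplets was run on whole kidney from wildtype male C57BL/6J mice of 19 weeks. The control library was the contralateral kidney, left uninjured, and the ischemia library was a kidney with 27 minutes of ischemia and 24 hours of reperfusion. Both kidneys went through the same enzyme digestion at body temperature. Each condition is 1 library, so no test between conditions was possible, differences between the kidneys, the preparations and the treatment cannot be told apart, and every interval below covers counting error only. Because the control kidney is contralateral to an injured one, it is not a kidney from an unoperated mouse.

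p53 is a transcription factor that is held low by Mdm2, the ubiquitin ligase that marks it for degradation and that p53 itself induces, so that the pair forms a feedback loop. Among the genes p53 induces, Cdkn1a encodes p21, which blocks cyclin-dependent kinases and so stops the cell cycle, while Ccng1, Phlda3, Gadd45a and Bax act in feedback on growth signals, DNA damage responses and the mitochondrial step of apoptosis. Gadd45b and Gadd45g are relatives of Gadd45a that respond to stress and cytokine signals, often without p53. In the kidney, tubule cells that survive ischemia are known to raise p21 and to pause in the cycle before repair.

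RefSeq promoter windows (GRCm38.p6) were found for all 9 genes, and the 250 bases before each start site were searched for the consensus p53 response element with at most 1 mismatch, a palindromic motif read on both strands at once. Of 32851 windows of this length, 25 held such an element (0.0761%), and 2 of the 10 windows of these genes did, one each of Cdkn1a and Ccng1. They are printed here, 5′ to 3′ on the strand of the gene, as the windows of these genes with such an element. The element is in capitals.
Cdkn1a upstream start (chr17:29090729-29090978, + strand): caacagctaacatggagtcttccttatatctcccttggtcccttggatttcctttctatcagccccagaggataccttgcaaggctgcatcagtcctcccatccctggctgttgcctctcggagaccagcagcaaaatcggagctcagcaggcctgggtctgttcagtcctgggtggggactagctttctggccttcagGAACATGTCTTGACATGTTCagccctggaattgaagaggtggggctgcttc
Ccng1 (chr11:40755287-40755536, - strand): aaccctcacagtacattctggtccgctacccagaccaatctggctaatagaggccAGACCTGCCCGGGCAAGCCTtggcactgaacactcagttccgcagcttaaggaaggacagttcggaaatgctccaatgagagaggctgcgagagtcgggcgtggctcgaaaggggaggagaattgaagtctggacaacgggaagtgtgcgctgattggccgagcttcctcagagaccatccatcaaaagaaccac
The Cdkn1a element ended 31 bases before the upstream start, and the other annotated start lay 2790 bases further along the gene, with no such element in its own window. With at most 3 mismatches, 1747 windows held an element (5.32%), among them 5 of the 10, the others being of Gadd45a, Bax and Trp53. The Ccng1 element ended 175 bases before its start. A match is a description of the letters and not evidence of a bound site, and the absence of one in the window of Mdm2, whose known p53 elements lie elsewhere in the gene, says nothing of its control.

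After filtering, 12586 control and 13116 ischemia cells were kept, with 124679362 and 128733541 unique molecular identifiers (UMIs, counts of single RNA molecules) and median depths of 3839 and 2138.5 UMIs per cell. Mitochondrial RNA was 25.2% of control and 20.1% of ischemia UMIs, and 58 cell barcodes occurred in both libraries. The cells fell into 19 clusters. The largest took no name, entered no comparison, and held 38.8% of control and 45.8% of ischemia cells. In all, 10 cell types named from their markers had at least 50 cells in each library. These were cells like proximal tubule (PT, 2966 control and 2214 ischemia cells), endothelium (EC, 902 and 1054), thick ascending limb (TAL, 499 and 493), collecting duct principal cells (CD-PC, 514 and 436), connecting and distal convoluted tubule (DCT-CNT, 461 and 354), macrophages (288 and 574), pericytes (178 and 243), T and NK cells (T-NK, 101 and 123), thin limb (88 and 79) and podocytes (90 and 65). The CD-PC cluster also had intercalated cell genes among its leading genes, so it holds both kinds of collecting duct cell. The pericyte cluster had the fibroblast genes Col3a1 and Col1a1 among its leading genes, and the thin limb cluster had Psca, a gene of the urothelium marker list. Whether these clusters hold other cells was not tested. Levels are CPM, UMIs summed over the cells of a type and library and scaled to a total of 1000000, with exact 95% Poisson intervals, and ratios are ischemia over control with exact 95% conditional intervals. The names below stand for clusters with the markers of that type, and a CPM is compared between groups of cells and not between genes.

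Across the 9 genes and 10 cell types there were 90 pairs, of which 76 had the 50 UMIs over both libraries that were needed for a ratio. The ratio was above 1 in 65 pairs, it was 2 or more in 23, and it was 0.5 or less in 2, both in thin limb cells. A ratio above 1 was common among all genes with this minimum. Their median ratio ran from 0.988 in thin limb cells to 1.08 in T-NK cells. Cdkn1a and Gadd45a each passed 2-fold in 6 cell types, Trp53 in 4, Gadd45b in 3, Gadd45g and Phlda3 in 2 each, and Mdm2, Ccng1 and Bax in none. Over all genes with the same minimum, the share at 2-fold or more was small. The 9 genes were chosen with earlier results of these data known, so the counts beside these shares are descriptions only. PT had 5 of 9 genes past 2-fold, against 6.94% of all genes. DCT-CNT had 4 of 9 against 6.41%, TAL 3 of 8 against 7.89% and CD-PC 3 of 9 against 5.73%. Macrophages had 2 of 8 against 5.72%, EC 1 of 9 against 1.9%, T-NK 1 of 2 against 2.68% and podocytes 1 of 4 against 0.956%. Pericytes had 0 of 9 against 3.24%. In thin limb cells 3 of 9 were higher, against 4.43% of all genes, and 2 of 9 lower, against 7.09%. The tubule types therefore held most of the pairs past 2-fold, and the vascular types few.

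**Figure D1:**
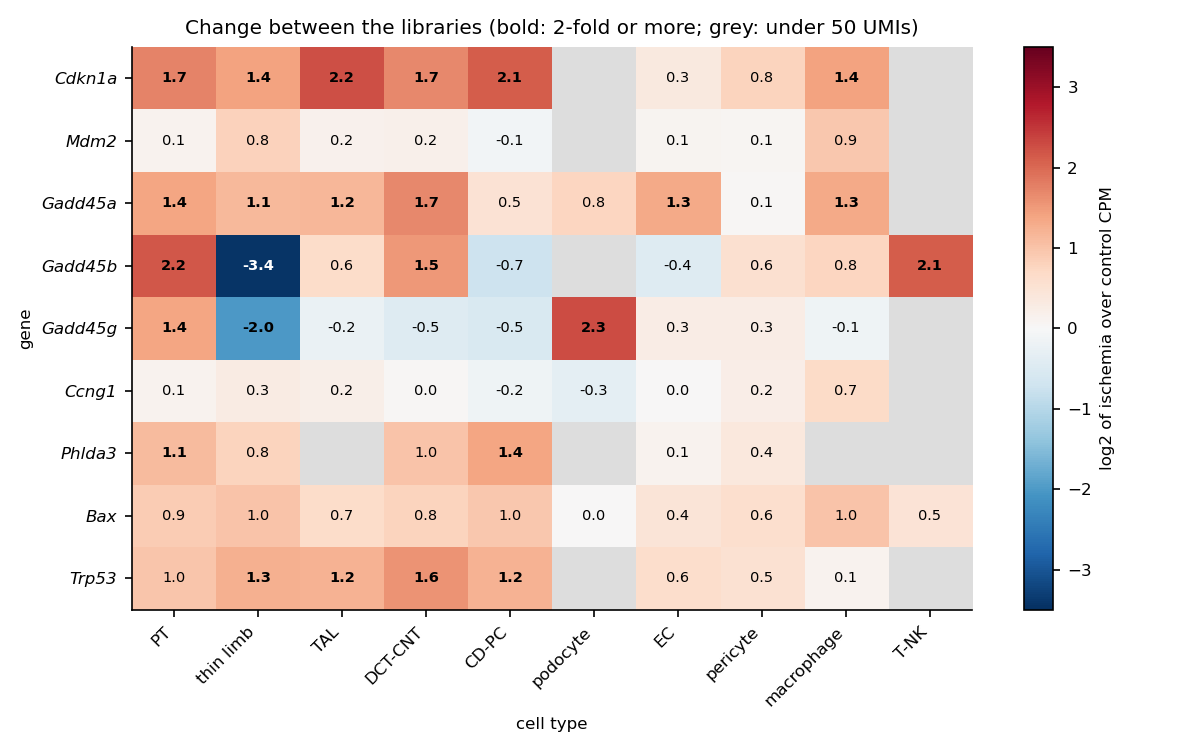
Log2 of the ischemia over control CPM for each gene (rows) in each cell type (columns), red for higher and blue for lower in ischemia, with bold numbers at 2-fold or more and grey where fewer than 50 UMIs were counted. Cdkn1a, Gadd45a and Trp53 are red across the tubule types, no value of Mdm2 or Ccng1 reaches 2-fold, and Gadd45b and Gadd45g are a deep blue in thin limb cells alone.

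Cdkn1a was the gene with the highest median ratio over cell types, 2.95. In PT cells it was at 7.17 CPM (6.53 to 7.85) in control and 23.7 (22.5 to 24.9) in ischemia, a ratio of 3.30 (2.97 to 3.67). Over all kept cells the ratio was larger in TAL, where Cdkn1a went from 9.61 to 45.6 CPM, 4.74-fold (3.83 to 5.93). CD-PC cells had 15.03 and 65.1 CPM, 4.33-fold (3.64 to 5.17). In DCT-CNT the levels were 34.7 and 112 CPM, 3.22-fold (2.83 to 3.68). PT, TAL, CD-PC and DCT-CNT are the epithelia of the tubule from its start to its end, and all 4 intervals lay above 2-fold. Thin limb cells started higher, at 50.02 CPM, and were at 134 in ischemia, 2.67-fold (2.10 to 3.43). Macrophages had 96.0 and 253 CPM, 2.64-fold (2.25 to 3.11). Of their 10 markers 5 had ratios below 1, among them the complement gene C1qa at 0.619, and 5 above 1, among them Lyz2 at 2.63 and the monocyte gene Ly6c2 at 2.29. The part of a different mixture of macrophages in this and their other values was not tested. Pericytes (62.8 and 107 CPM, ratio 1.70, 1.28 to 2.29) and EC (141 and 177 CPM, ratio 1.26, 1.15 to 1.39) differed by less. Podocytes and T-NK cells had 2 to 6 Cdkn1a UMIs in a library, too few for a ratio.

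The order of the cell types by summed Cdkn1a CPM therefore changed. In control, EC stood first and macrophages second, followed by pericytes and thin limb cells, whose intervals overlapped, and PT was near the bottom with TAL and T-NK. In ischemia, macrophages were first at 253 CPM, EC second, followed by thin limb cells, and PT at 23.7 CPM was still below every other type with a measured level. PT cells held 19.0% of all Cdkn1a UMIs in control and 19.8% in ischemia, while macrophages held 7.05% and 18.1% and EC 28.8% and 15.9%. Read per cell, the share of PT cells with at least 1 Cdkn1a UMI was 5.66% (4.86 to 6.56) in control and 22.9% (21.2 to 24.7) in ischemia, at median depths of 19835.5 and 27768 UMIs. After each cell was thinned to 1000 UMIs, the shares were 0.650% and 1.97%, with 42 control and 26 ischemia cells too shallow to enter. In macrophages the unthinned shares were 25.3% and 60.5%, and the thinned ones 12.1% (8.50 to 16.4) and 16.6% (13.7 to 20.0). The thinned shares of EC were 7.49% (5.84 to 9.43) and 11.6% (9.69 to 13.8). By thinned share macrophages thus stood first in both libraries, unlike the order by CPM in control. The T-NK cells, with 1.98% and 3.25% of cells carrying a Cdkn1a UMI at median depths of 2959 and 3266 UMIs, show how low such shares are in a type with little of this RNA.

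Free RNA from broken cells can enter any droplet, and its size was read from PT marker genes. In the ischemia library macrophages carried PT markers at 13.2% of the PT level, which at the Cdkn1a level of PT amounts to 3.12 CPM beside the 253 CPM measured. TAL cells carried 4.49%, or 1.06 CPM beside 45.6. PT itself had only 23.7 CPM, so this reading was bound to fall below the level of both types. Cdkn1a RNA from types with more of it, such as macrophages and EC, is not given here for the tubule cells. In T-NK cells of the ischemia library, by the same reading, 5.72 of the 13.5 CPM and in podocytes 0.914 of the 2.11 CPM in control could come from PT RNA. Mitochondrial content moved with the result. Cells with over 25% mitochondrial UMIs were 47.1% of control and 27.8% of ischemia PT cells, and 74.3% and 49.9% of TAL cells, and their Cdkn1a CPM was lower in both libraries. Among PT cells at or below 25%, Cdkn1a was at 11.7 and 28.1 CPM, a ratio of 2.41. For TAL the same limit gave 28.3 and 64.5 CPM, a ratio of 2.28, and for DCT-CNT a ratio of 2.02, all still past 2-fold. With this limit the TAL ratio was no longer larger than that of PT. Markers of the tubule types were mostly lower in ischemia, with ratios from 0.242 to 0.869 for the 12 of PT and from 0.0495 to 1.80 for the 7 of DCT-CNT, of which 6 were below 1, and their part in the values of these types was not tested.

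**Figure D2:**
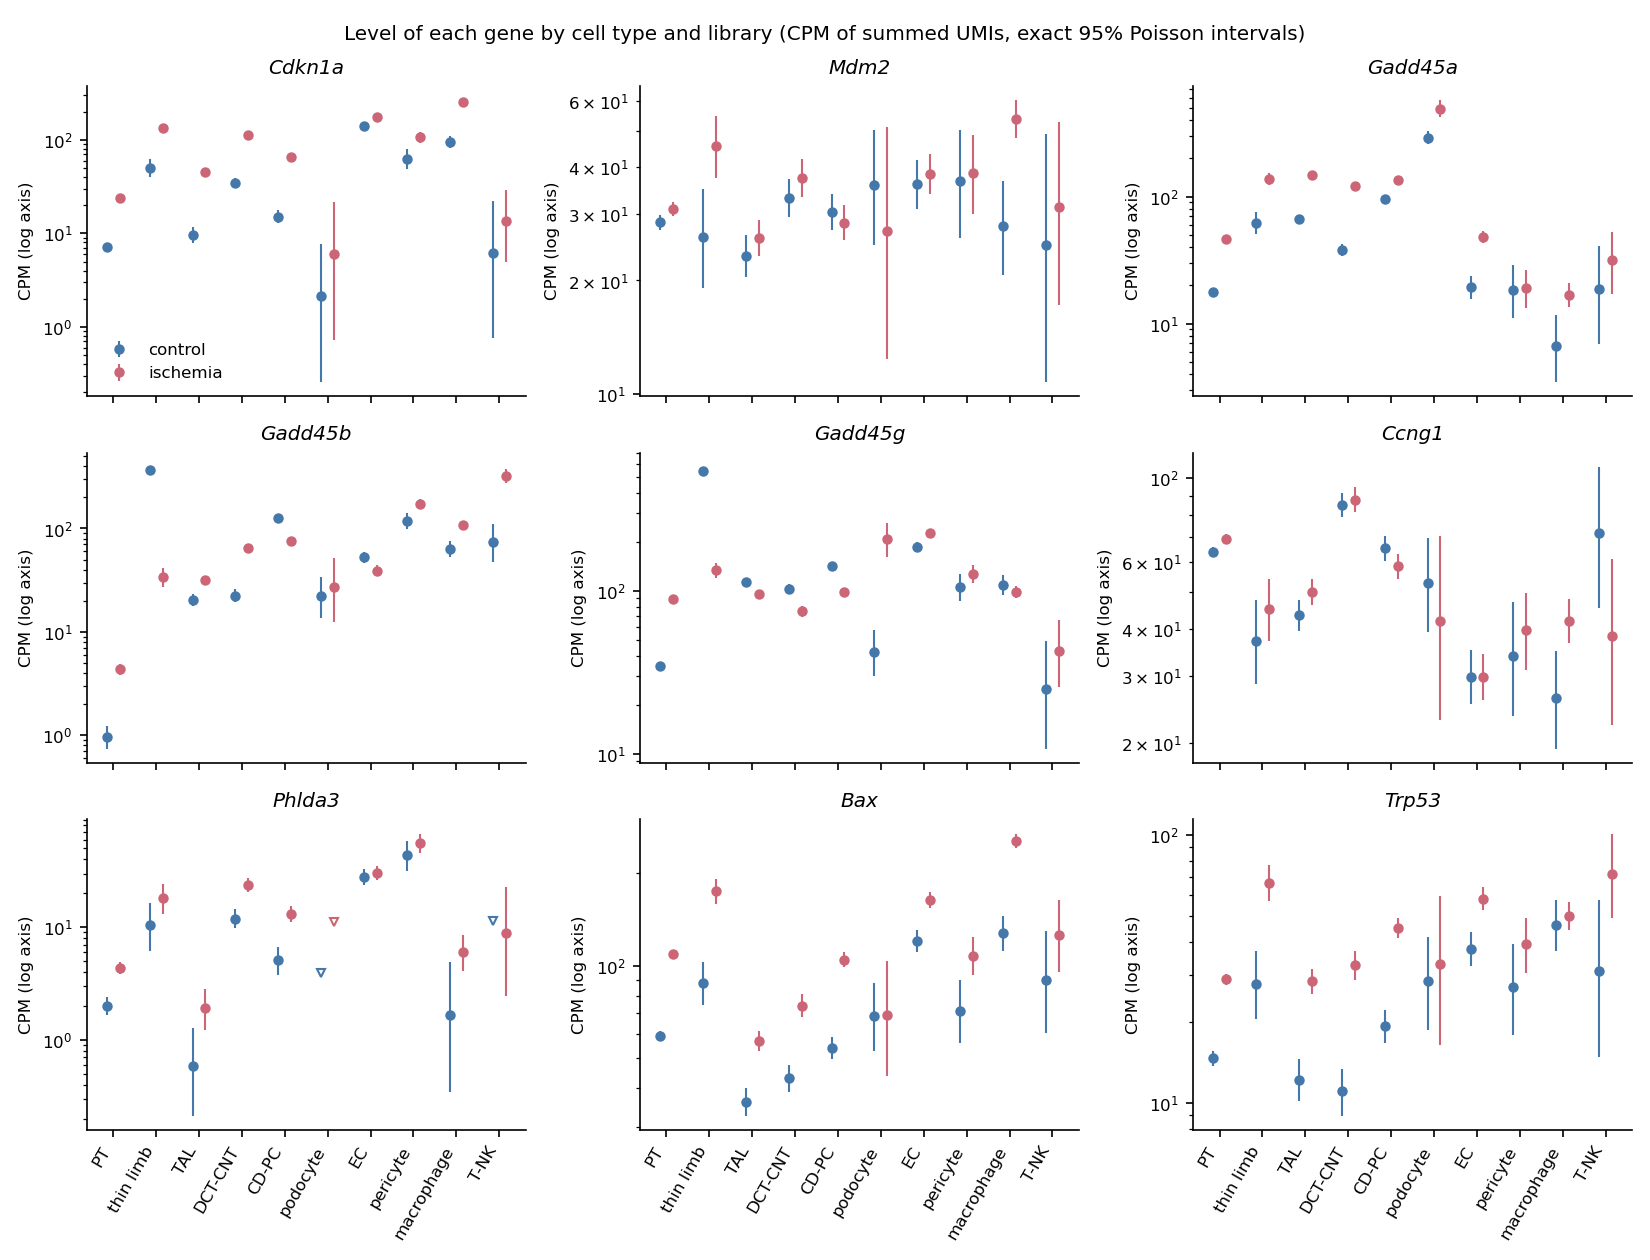
CPM of each gene (log axis, a panel for each gene) in the 10 cell types for the control (blue) and ischemia (red) library, points with exact 95% Poisson intervals and open triangles for the upper bound where no UMI was counted. Cdkn1a lies higher in ischemia in each tubule type and in macrophages, Gadd45a is highest in podocytes, and Gadd45b and Gadd45g in thin limb cells lie lower in ischemia.

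The Cdkn1a UMIs of control tubules came from few cells. In control PT, 1% of cells held 62.6% of the Cdkn1a UMIs, and a single cell had 96 of the 463. In ischemic PT the same share of cells held 29.9%, and the highest cell had 45 of 1482 UMIs. TAL cells had 44.4% and 18.8% of their Cdkn1a UMIs in the top 1% of cells, and DCT-CNT cells 33.1% and 13.5%. The higher level in ischemia was thus spread over more cells in each of these types. Median depths were also higher in ischemia, for example 19866 and 24281 UMIs in TAL, and the part of depth was not tested. Without the top 1% of cells in each library, the PT ratio was 6.23 in place of 3.30, the CD-PC ratio 7.37 in place of 4.33 and the pericyte ratio 3.01 in place of 1.70. The top 1% held 52.2% of control and 19.8% of ischemia UMIs in CD-PC, and 50.8% and 15.7% in pericytes. The higher ratios follow from such shares and are no separate result.

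**Figure D3:**
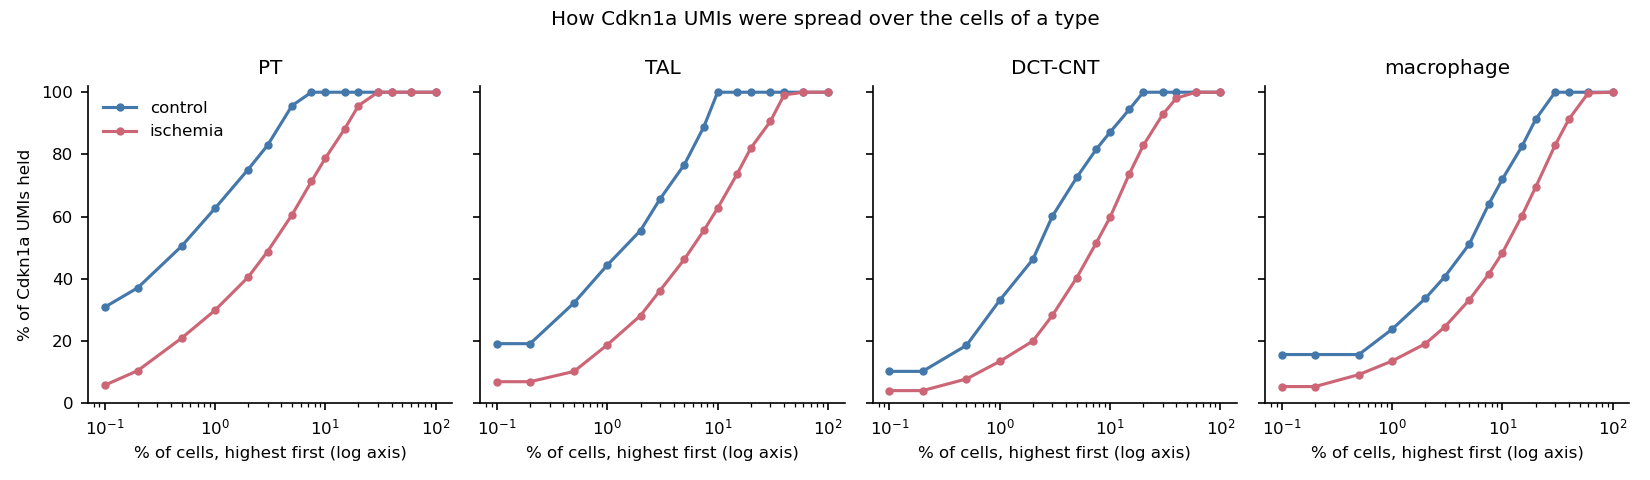
Share of Cdkn1a UMIs (vertical axis, %) held by the cells with the most Cdkn1a UMIs, as a cumulative share of the cells of that type (horizontal log axis, %), for control (blue) and ischemia (red). The control curve lies to the left in all 4 types, with 62.6% of PT UMIs in 1% of cells against 29.9% in ischemia.

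Groups of cells rich in Cdkn1a also had higher summed levels of other p53 targets, in both libraries. PT and DCT-CNT cells were grouped by their Cdkn1a UMIs, within 20000 to 60000 UMIs per cell to bring their depths closer, with medians from 32389 to 34166.5 in control PT and from 39851 to 50403 in ischemic PT. These groups were set after the values had been seen, so they are described and not tested. In control PT, the 1348 cells with 0 Cdkn1a UMIs had Ccng1 at 60.2 CPM (57.9 to 62.4), and the 18 cells with 3 to 9 had 165 (134 to 200). The 5 control cells with 10 or more had 202 CPM (142 to 278). Mdm2 in the same groups was at 26.0, 59.7 (42.1 to 82.3) and 70.9 CPM (37.7 to 121). Phlda3, a repressor of Akt signaling, was at 1.01, 22.6 (12.4 to 37.9) and 38.2 CPM (15.3 to 78.6). So the few control PT cells richest in Cdkn1a had, as groups, higher summed levels of Ccng1, Mdm2 and Phlda3. These are sums over few cells, and how the genes were shared among single cells was not computed. Neither mitochondrial share nor PT cluster was matched between the groups. Control PT cells at or below 25% and those above 25% mitochondrial UMIs had Ccng1 at 73.7 and 55.4 CPM. Mdm2 was at 31.5 and 26.1 CPM in them, and Phlda3 at 3.16 and 0.992. Over the PT clusters of the control library, Ccng1 ran from 51.0 to 88.4 CPM, Mdm2 from 21.0 to 31.7 and Phlda3 from 0.954 to 4.92. The part of mitochondrial share or of cluster in the group levels was not tested.

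Ischemic PT cells showed the same arrangement with more cells. From the 789 cells with 0 Cdkn1a UMIs to the 107 with 3 to 9 and the 13 with 10 or more, Ccng1 went from 60.8 to 100.1 (91.4 to 109) and 180 CPM (149 to 215). Mdm2 was at 27.1, 41.1 (35.6 to 47.2) and 104 CPM (81.0 to 132), and Bax at 90.4, 160 (149 to 171) and 237 CPM (201 to 277). Gadd45a was at 39.5, 59.6 and 133 CPM. The Cdkn1a-free PT cells of the libraries differed little in Mdm2 (26.0 and 27.1 CPM) and Ccng1 (60.2 and 60.8), whereas their Bax (58.7 and 90.4) and Gadd45a (14.3 and 39.5) differed. In DCT-CNT, Ccng1 was at 63.8 CPM in control cells with 0 Cdkn1a UMIs and 378 (282 to 498) in the 5 with 10 or more. The ischemic DCT-CNT groups had 46.2 and 181 CPM (155 to 211), the latter in 25 cells. TAL cells had a smaller spread, with ischemic Ccng1 at 42.8 CPM in cells with 0 Cdkn1a UMIs and 98.7 (64.5 to 145) in the 8 with 10 or more.

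**Figure D4:**
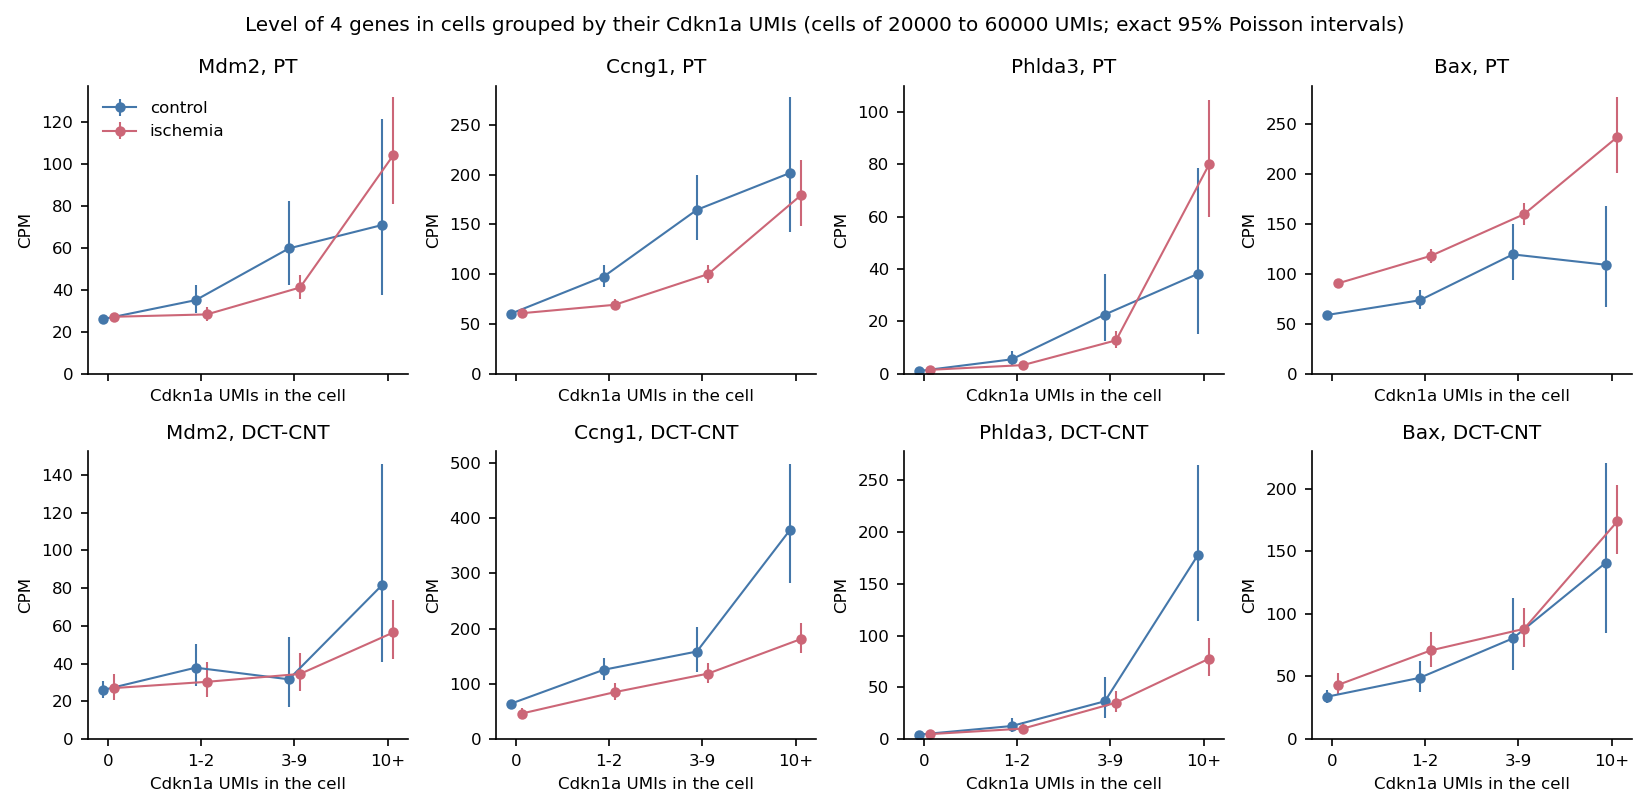
CPM of Mdm2, Ccng1, Phlda3 and Bax (vertical axes from 0) in cells grouped by their own Cdkn1a UMIs (horizontal axis), for PT (top) and DCT-CNT cells (bottom) of 20000 to 60000 UMIs, with exact 95% Poisson intervals. In both libraries cells with 10 or more Cdkn1a UMIs lie above those with 0, for example 202 against 60.2 CPM of Ccng1 in control PT.

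Within ischemic PT, Cdkn1a followed Havcr1, which encodes the injury marker KIM-1. The 592 ischemic PT cells without a Havcr1 UMI had Cdkn1a at 7.30 CPM (5.81 to 9.07), close to the 6.88 (6.24 to 7.58) of the 2800 such control cells. The 545 cells with 1 or 2 Havcr1 UMIs had 14.2 CPM (12.1 to 16.6), and the 1077 with 3 or more had 31.1 (29.4 to 32.8). Control PT had 31 cells with 3 or more Havcr1 UMIs, and these had 39.9 CPM (27.4 to 56.0). Depth moved with this grouping, with medians of 12130.5 UMIs in the ischemic cells without Havcr1 and 39861 in those with 3 or more, and its part was not tested. Gadd45g did not follow Havcr1 in the ischemic cells, at 87.8, 89.2 and 89.9 CPM across the 3 groups, and in control cells without Havcr1 it was at 33.6. The ischemic PT cells without Havcr1 thus had a control-like Cdkn1a level and a Gadd45g level like that of the other ischemic cells.

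Cells with RNA of the cell cycle were rare and did not lack Cdkn1a. Cycling was read from the summed UMIs of Mki67, Top2a, Cdk1 and the other genes of a list of 5, with at least 3 UMIs. CD-PC had the most in ischemia, 29 cells against 5 in control, and the summed level of the list in CD-PC was 4.12 and 76.4 CPM. The 29 ischemic cells had Cdkn1a at 144 CPM (127 to 162), above the 50.2 (45.8 to 54.8) of the 407 other ischemic CD-PC cells. Their median depth was 51399 UMIs against 20384, and the part of depth or of 2 cells in a droplet was not tested. In macrophages the 13 ischemic cycling cells had 190.0 CPM (140 to 253), below the 256.2 (242 to 271) of the rest, with intervals that overlapped.

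Trp53, the gene of p53, had a ratio above 1 in the 8 types in which it was measured, and in 6 of them the interval lay above 1. PT cells had 14.7 CPM in control and 29.0 in ischemia, a ratio of 1.97 (1.82 to 2.14), just inside the 2-fold limit. DCT-CNT had 11.1 and 32.8 CPM, 2.97-fold (2.34 to 3.78). Thin limb (27.9 and 66.5 CPM, 2.38-fold), TAL (12.2 and 28.5, 2.33-fold) and CD-PC (19.3 and 45.03, 2.33-fold) also passed. At most 25% mitochondrial UMIs brought TAL to 1.73. EC had 37.7 and 58.0 CPM, a ratio of 1.54 (1.29 to 1.84), and macrophages 46.3 and 50.03, a ratio of 1.08 (0.841 to 1.40). Pericytes had 27.1 and 39.1 CPM, a ratio of 1.45 (0.923 to 2.32). p53 is controlled largely at the level of the protein, which was not measured.

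Mdm2, the brake on p53, passed 2-fold in none of the 8 types measured. PT cells had 28.6 and 31.0 CPM, a ratio of 1.08 (1.02 to 1.15), and TAL cells 23.3 and 26.0, a ratio of 1.11 (0.941 to 1.32). The highest ratios were in macrophages (27.9 and 53.8 CPM, 1.93, 1.42 to 2.66) and thin limb cells (26.2 and 45.5 CPM, 1.74, 1.22 to 2.52), and CD-PC was the only type below 1, at 0.937 (0.801 to 1.10). Over cell types the level of Mdm2 was flat, from 23.3 to 36.7 CPM in control. Of the other regulators and relatives of p53, 10 of 12 were measured in PT, with 1 higher, 1 lower and a median ratio of 0.972. Of all 13398 genes measured in PT, 930 were higher and 509 lower by 2-fold or more. Mdm4, the relative of Mdm2 that also restrains p53, was at 27.8 and 24.4 CPM in PT, 0.880 (0.821 to 0.942), a gene named after its values were seen.

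Gadd45a, a stress sensor that slows the cycle and aids DNA repair, was highest in podocytes in both libraries, at 291 and 493 CPM, a ratio of 1.69 (1.39 to 2.06). Its ratio was above 1 in all 9 types measured. DCT-CNT had 38.0 and 121 CPM, 3.19-fold (2.82 to 3.62), and PT 17.7 and 46.3, 2.61-fold (2.44 to 2.80). EC, where Cdkn1a differed little, had 19.2 and 48.2 CPM, 2.50-fold (1.99 to 3.18). All 4 tubule injury genes measured in EC were also higher by 2-fold or more, among them Havcr1 at 1.80 and 104 CPM. The part of free tubule RNA in the EC value of Gadd45a was not tested. TAL was at 66.1 and 149 CPM (2.25-fold), thin limb at 62.2 and 137 (2.21-fold) and macrophages at 6.70 and 16.9 (2.52-fold, 1.37 to 5.06). The calls in TAL, thin limb and macrophages were not kept in every setting, with lowest ratios of 1.74, 1.83 and 1.93. In macrophages, PT RNA at the level of their PT markers would give 3.21 of the 6.70 CPM in control and 6.10 of the 16.9 in ischemia. Pericytes had 18.4 and 19.0 CPM.

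Gadd45b and Gadd45g, which in many tissues answer NF-kB and cytokine signals, differed in both directions. Thin limb cells of the control kidney had the highest level of each, 366 CPM (338 to 396) of Gadd45b and 543 (509 to 579) of Gadd45g. In ischemic thin limb cells Gadd45b was at 33.9 CPM (27.0 to 41.9), a ratio of 0.0925 (0.0728 to 0.116), and Gadd45g at 134 (120 to 149), a ratio of 0.247 (0.217 to 0.280). At the same time Cdkn1a, Gadd45a and Trp53 were more than 2-fold higher in these cells. Gadd45b was found in 63.6% of the 88 control and 40.5% of the 79 ischemic thin limb cells, at median depths of 11350 and 17666 UMIs, and after thinning to 1000 UMIs in 17.0% (9.87 to 26.6) and 3.85% (0.800 to 10.8). Both ratios stayed under 0.5 in all 10 alternatives that gave a value. Of the thin limb markers, Slc14a2 (2596 and 2571 CPM), Bst1 (702 and 613) and Fst (2262 and 1875) were near even, while Cryab (7882 and 4248) and Sptssb (32.0 and 0) were lower in ischemia. The part of a different mixture of thin limb cells in the Gadd45 values was not tested. Immediate early genes, which tissue digestion can induce, were highest in thin limb cells too, with 12 genes summing to 11910 CPM in control and 10675 in ischemia.

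In PT both genes were higher in ischemia. Gadd45g was at 34.6 and 89.4 CPM, 2.58-fold (2.46 to 2.72), and Gadd45b at 0.960 and 4.36, 4.54-fold (3.44 to 6.09) from a level near 0. When cells were assigned by marker UMIs and not by cluster, the Gadd45b ratio in PT was 1.59, under the limit. PT also had 8 of 12 immediate early genes past 2-fold and a summed 404 and 839 CPM, where the other types had at most 1 higher by 2-fold, and the part of this in the Gadd45 values was not tested. T-NK cells had Gadd45b at 74.6 CPM (47.8 to 111) and 323 (273 to 381), 4.34-fold (2.80 to 6.99), from 24 and 144 UMIs. Ratios of the T-NK markers ran from 0.549 for Klrb1c to 1.47 for Trac. The part of a different mixture of T and NK cells was not tested. DCT-CNT cells had 22.4 and 64.8 CPM, 2.89-fold. Podocytes had Gadd45g at 42.3 CPM (30.2 to 57.6) and 207 (161 to 262), 4.90-fold (3.27 to 7.43). With each podocyte weighted equally that ratio was 2.11, and without the top 1% of cells it was 4.41. The share of podocytes with a Gadd45g UMI was 18.9% (11.4 to 28.5) in control and 16.9% (8.76 to 28.3) in ischemia. Median depths were 4618.5 and 2240 UMIs, and the thinned shares were 4.82% (1.33 to 11.9) and 9.09% (3.02 to 20.0). The 69 ischemia UMIs lay in 11 of the 65 cells, with 17 in the highest. PT RNA at the level of PT markers in podocytes would give 4.41 CPM in control and 15.1 in ischemia. CD-PC was lower for both genes in ischemia, with ratios of 0.605 for Gadd45b and 0.686 for Gadd45g, and with cells assigned by marker UMIs these were 0.196 and 0.270.

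Among the targets that act beside p21, Phlda3 and Bax were moderately higher and Ccng1 was not. Ccng1, which encodes cyclin G1 and feeds back on p53, had PT levels of 64.0 and 69.1 CPM, a ratio of 1.08 (1.03 to 1.13). Its ratios ran from 0.796 in podocytes to 1.60 in macrophages, and DCT-CNT cells, at 85.1 and 87.9 CPM, stood highest in control and ischemia. Phlda3 was 2.16-fold higher in PT (2.01 and 4.34 CPM) and 2.601-fold in CD-PC (5.08 and 13.2 CPM), and the ratio in DCT-CNT was 1.998 (1.56 to 2.56, from 11.95 and 23.87 CPM), just short of the limit. A limit of 25% on mitochondrial UMIs, assignment by marker UMIs or equal cell weights each brought the PT ratio of Phlda3 under 2, the lowest being 1.65. Pericytes had the most Phlda3, 43.5 and 56.0 CPM.

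Bax, the effector that opens the mitochondrial outer membrane in apoptosis, had ratios from 1.01 to 1.99 in the 10 types. PT had 59.3 and 109 CPM (ratio 1.84, 1.77 to 1.91), CD-PC 54.0 and 105 (1.94, 1.75 to 2.14) and macrophages 128 and 254.5 (1.99, 1.73 to 2.30). Podocytes, at 68.7 and 69.1 CPM, and T-NK cells had intervals that held 1. The CD-PC ratio passed 2 in 3 alternatives, with 2.32 the highest.

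The wider pathway was read from lists of genes outside the 9. These lists and the 9 genes were chosen with earlier results of these data known, so the counts and medians below are descriptions only. In PT, where all genes with 50 UMIs had a median ratio of 1.08, the 9 genes had a median of 2.16. Of 24 p53 targets in arrest and repair 21 were measured, 6 past 2-fold, where 6.94% of all genes were, and a median of 1.07. The p53 targets in cell death had 3 of 12 past 2-fold and a median of 1.49, and the BCL2 family of apoptosis regulators 1 of 9 and 1.53. None of the 4 other CDK inhibitors measured was higher, and Cdkn1c, the inhibitor p57, was lower, at 1.39 and 0.687 CPM (0.493, 0.334 to 0.716). Podocytes had Cdkn1c at 7133 and 6125 CPM, and the part of free podocyte RNA in the low PT levels was not tested. Sfn, a 14-3-3 protein that holds cells before mitosis, had the third highest ratio of all lists at 11.7 (9.21 to 14.9), from 1.18 to 13.7 CPM. Only the injury genes Havcr1 (7.54 and 441 CPM, 58.5-fold) and Krt20 (0.372 and 11.5 CPM, 30.9-fold) had higher ones. Trp63, a p53 relative, was at 0.991 and 0.495 CPM (0.4997, 0.314 to 0.779).

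In TAL the 8 measured genes had a median ratio of 1.57, against 1.07 for all genes. The arrest and repair targets had 6 of 20 higher and 2 lower, with a median of 1.28, and the cell death targets 3 of 9 higher and 1 lower, with 1.42. Of all 11236 genes measured in TAL, 886 were higher and 850 lower. Among the injury genes, Havcr1 was at 0.582 and 35.3 CPM, 60.7-fold, and Clu, which encodes the secreted chaperone clusterin, at 291 and 6565 CPM, 22.6-fold. Ak1 and Dcxr, enzymes of nucleotide and sugar metabolism on the arrest and repair list, had the lowest ratios, 0.352 (0.292 to 0.423) and 0.457 (0.388 to 0.538). The 6 markers of TAL itself had ratios from 0.0208 to 0.642, among them Slc12a1, the salt transporter of this segment, at 5217 and 498 CPM, and their part in the TAL values was not tested.

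**Figure D5:**
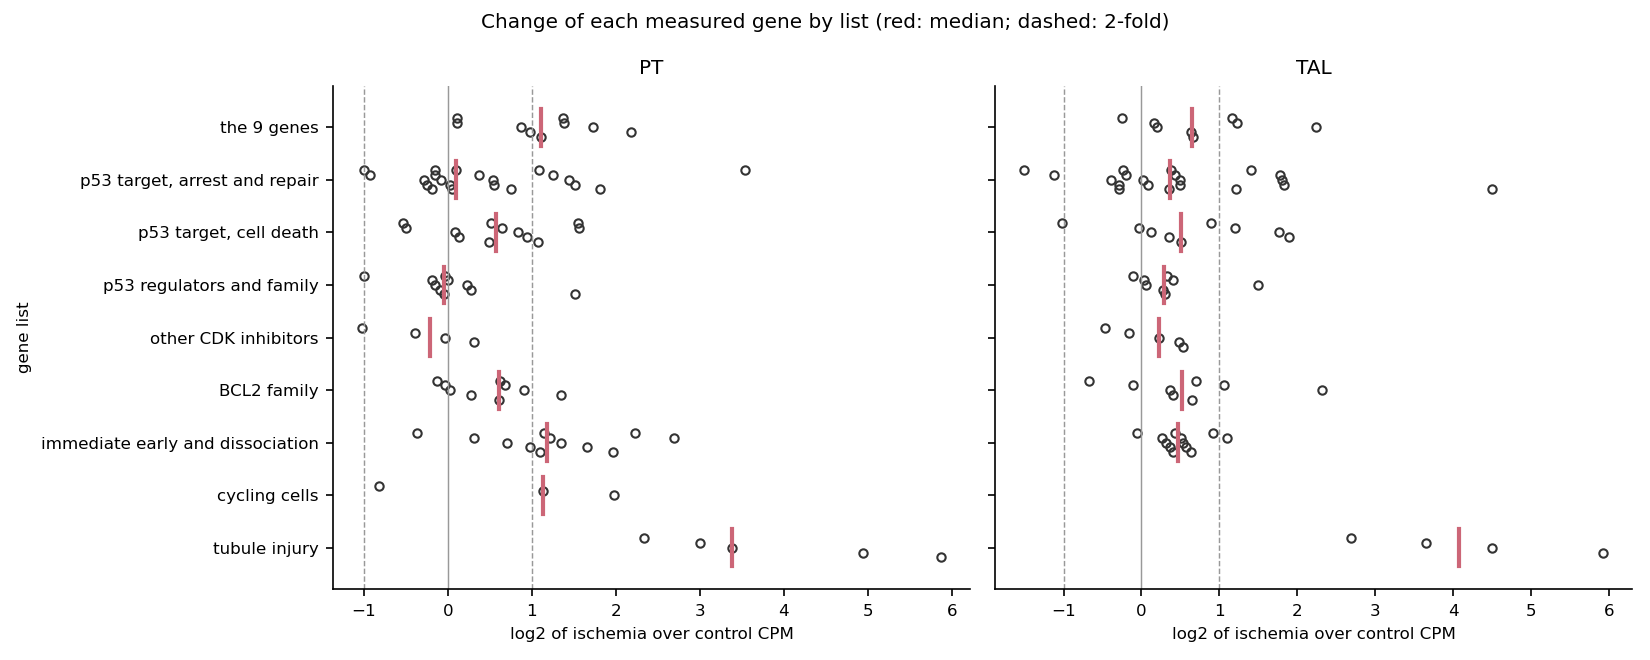
Log2 of the ischemia over control CPM (horizontal axis) for each measured gene of the 9 and of 8 other lists (rows) in PT (left) and TAL (right), with the median in red and 2-fold as dashed lines. In PT the 9 genes have a median ratio of 2.16 and the arrest and repair list 1.07, and the injury genes lie farthest to the right. The 9 genes and the lists were chosen with earlier results of these data known.

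Genes with the most similar pattern were sought over the 20 groups of library and cell type, as Pearson correlations of log2(CPM + 1) among 14228 genes outside the lists. They are descriptions, since the groups share 2 libraries. For Cdkn1a the first was Trp53cor1 (r = 0.82), the long noncoding RNA known as lincRNA-p21, which lies on the same chromosome at chr17:29057430-29079179, before Cdkn1a at chr17:29090976-29100727 and on the opposite strand. Its UMIs were few, 88 in all control and 129 in all ischemia cells, and in PT its level was 0.464 and 0.447 CPM, a ratio of 0.963 (0.554 to 1.67). In ischemic DCT-CNT cells of 20000 to 60000 UMIs, 9 of its UMIs lay in the 25 cells with 10 or more Cdkn1a UMIs, or 9.59 CPM (4.39 to 18.2), and 0 in the 78 cells without one. In control PT the 5 cells with 10 or more held 4 UMIs, or 21.8 CPM (5.94 to 55.8), against 0.151 (0.0607 to 0.311) in cells without one. Guca1a and Trim47 followed, with r = 0.82 each. Bax was most alike Rpl15 (r = 0.92), a ribosomal protein gene, and Trp53 most alike Nip7 (r = 0.92) and Mcm4 (r = 0.91), of ribosome assembly and DNA replication. Gadd45b was most alike Slc7a6 (r = 0.90) and Ppp1r15a (r = 0.86), the latter also named GADD34 and part of the stress response to misfolded proteins. Gadd45a was most alike Pard6b (r = 0.88) and Cd2ap (r = 0.87), the latter a protein of the podocyte slit diaphragm.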

How the data were processed

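Single-cell libraries of whole mouse kidney (1 control, 1 ischemia) were analysed. The deposited values are raw UMI counts by gene and barcode, which the authors made with Cell Ranger 7.0.0 on mm10 according to the submitters' processing notes and not normalized. Cells were kept with 200 or more genes, between 500 and 150000 UMIs, and no more than 55% of UMIs from mitochondrial genes. In Seurat 5.3.0 (R 4.3.3) the libraries were integrated by anchors and clustered on 2000 variable genes, chosen without the listed genes, with 30 principal components and resolution 0.3, and clusters were named from marker lists. UMIs were summed and exact Poisson, conditional and Clopper-Pearson intervals (95%) computed in Python 3.11.15 (scipy 1.17.1, numpy 2.4.6), and figures were drawn in matplotlib 3.10.9. A ratio of 2 or more, or of 0.5 or less, was called past the limit when both libraries together held 50 UMIs and each held 50 cells of the type. The calculations were tested on simulated data. Conditions were not tested against each other, having 1 library each. Scrublet (scanpy 1.11.5) marked 0 cells and so had not worked, and the UMI maximum was the only other step against doublets. All 2524 barcodes removed in control and 2137 of the 2141 removed in ischemia were over the mitochondrial limit. The UMI maximum by itself thus removed few or none, and doublets may remain. The 9 genes and 8 other lists of 86 genes were chosen with earlier results of these data known. Beyond the 9 genes, those named by rule were the 3 highest and 2 lowest listed ratios in PT and in TAL, and genes alike each of the 9, and some results of the rule and of the marker lists are not reported here. Promoter windows came from RefSeq and gene positions from GENCODE M21, both on GRCm38.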

Additional observations from a re-analysis of the deposited data

Results flagged for a closer look

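Clusters that took no name, neutrophil-like cells and B cells (40 in each library) were in no comparison above. Several of the 9 genes passed 2-fold in the clusters without a name. The share of all genes past 2-fold was not computed in these clusters. Whether the 9 genes pass it more often than other genes there is therefore not known. The largest cluster (4881 control and 6013 ischemia cells, median depths of 903 and 801 UMIs) had ischemia over control ratios of 4.32 for Cdkn1a, 2.596 for Gadd45a, 2.02 for Phlda3, 2.15 for Bax and 2.11 for Trp53. It carried PT markers at 74.8% of the PT level in control. Another unnamed cluster (860 and 784 cells) had ratios of 3.92 for Cdkn1a, 2.72 for Gadd45a, 2.11 for Gadd45b, 2.24 for Phlda3, 2.03 for Bax and 3.17 for Trp53. In a further one (621 and 385 cells) the ratios were 2.79 for Gadd45a and 2.74 for Gadd45g. The best-scoring marker list of this cluster was that of PT, with 12 of its markers detected. Its Cdkn1a was at 15.5 and 11.7 CPM, a ratio of 0.757 (0.528 to 1.07), where the named PT cells had 3.30. Neutrophil-like cells (33 and 207) had a Gadd45b ratio of 2.62. With 1 library each, none of these was tested.

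Gadd45b and Gadd45g stood out because cell types went opposite ways. Gadd45b had a ratio of 4.54 in PT and 0.0925 in thin limb cells, and Gadd45g one of 4.90 in podocytes and 0.247 in thin limb cells. The difference between the types was not tested.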

How the results depend on the processing

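Of the 25 pairs past 2-fold, 19 kept their call in every alternative that gave a value, 6 lost it in some, and none of the 25 turned its direction. Those lost were Gadd45a in TAL, macrophages and thin limb, Gadd45b and Phlda3 in PT, and Trp53 in TAL, with the values given above, and the cause was not tested. The Cdkn1a ratio in PT was 2.41 with at most 25% mitochondrial UMIs, 2.90 with cells assigned by marker UMIs and 6.23 without the top 1% of cells. Assignment by marker UMIs gave 4 pairs lower by 2-fold or more in place of 2, and a limit of 1.5-fold gave 44 pairs in all, 41 of them higher. The share of all genes past 1.5-fold is not given here for comparison. Pairs moved by over 1.5 times and not named above were Gadd45b in TAL (2.93 with at most 25% mitochondrial UMIs), Gadd45g in DCT-CNT (0.457 with the same limit, 1.17 with no integration) Phlda3 in CD-PC (4.09 without the top 1% of cells), Gadd45a in pericytes (1.76 with no integration or with listed genes kept among the variable genes) and, with cells weighted equally, Bax in T-NK cells (0.889 in place of 1.40) and Ccng1 in podocytes (1.20 in place of 0.796), both turning to the other side of 1. Leaving out the 8% highest doublet scores, an alternative chosen after seeing the data, moved none of 79 values beyond its interval. By the same count, at most 25% mitochondrial UMIs moved 22 values and left 57, and equal cell weights moved 17 and left 62. Assignment by marker UMIs moved 14 and left 59, and no integration moved 11 and left 51. The other alternatives moved 8 or fewer each. In all, 37 pairs were moved at least once. Removing Scrublet's doublets gave no values, since it marked 0 cells. No paired analysis was possible because each condition holds 1 library, and leaving out a replicate was not possible for the same reason. Depth limited podocytes and T-NK cells most, with 5 and 7 of their 9 pairs under 50 UMIs.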
